A study of Mus musculus with 4 samples.

Results

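SOX3 binding at gene promoters was examined in neural progenitor (NP) cells through 1028 promoter regions. Overlapping peaks (1 bp or more) of 3 SOX3 ChIP-seq peak lists were merged into 51271 regions, of which 5358 held a peak from each list and are called common regions. Common regions whose midpoint was no farther than 2000 bp from an annotated start of a protein-coding gene (GENCODE vM1, mm9 mouse genome) are called promoter regions. The promoter regions were 19.2% of the common regions (95% Wilson interval 18.2 to 20.3%), and the remaining 4330 common regions were intergenic in 2740 cases, intronic in 1520 and exonic in 70. They lay near 1072 of the 22367 protein-coding genes.

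The NP cells came from R1 cells, a mouse embryonic stem (ES) cell line, grown as a monolayer in N2B27 for 4 days to induce neural progenitors without serum. No transgene, deletion or other treatment is given for any sample. Chromatin bound by endogenous SOX3 was recovered with an antibody in 3 biological replicates, and 1 input sample without that antibody served as the background when peaks were called. All samples derive from 1 cell line, and peak lists hold no expression values, so the identity of the cells could not be checked from their markers.

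SOX3 is a transcription factor of the SOXB1 group, whose members bind the minor groove of short A- and T-rich sites through an HMG box and act in neural progenitors together with partner factors, among them POU proteins. A promoter is the stretch around a transcription start where the polymerase assembles. Many mammalian promoters are rich in G, C and CpG dinucleotides, a composition in which short A- and T-rich words are less frequent.

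The SOX words of the promoter regions are shown in sets from the mm9 reference, to let the sites be read directly. The composite set holds promoter regions with a composite SOX/POU word, in which a loosely defined SOX half-site with only some letters fixed is followed by ATGCAAA or ATGCTAA, the first 7 letters of the POU octamer. The regions are the 5 of highest rank with this word, and those with it among the 12 highest-ranked regions of developmental genes. The SOX half-site of some lines is far from the plain SOX word, and the Igfbpl1 and Shroom3 regions held 0 of the plain SOX words counted below. The word is in capitals, and each line reads 5′ to 3′ on the strand that carries it. The windows are chr2:25036199-25036259 (plus strand) for Nrarp, chr11:96226862-96226922 (plus) for Hoxb1, chr2:26359665-26359725 (minus) for Notch1, chr19:17212813-17212873 (plus) for Prune2, chr4:45828562-45828622 (plus) for Igfbpl1, chr11:77707532-77707592 (plus) for Pipox and chr5:93326868-93326928 (plus) for Shroom3.
Nrarp: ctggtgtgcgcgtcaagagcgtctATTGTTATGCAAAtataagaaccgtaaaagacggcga
Hoxb1: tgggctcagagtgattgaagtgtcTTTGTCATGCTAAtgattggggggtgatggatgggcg
Notch1: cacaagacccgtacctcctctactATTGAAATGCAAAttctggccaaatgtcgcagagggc
Prune2: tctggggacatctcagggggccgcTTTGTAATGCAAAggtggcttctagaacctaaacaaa
Igfbpl1: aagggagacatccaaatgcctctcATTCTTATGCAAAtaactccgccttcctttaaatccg
Pipox: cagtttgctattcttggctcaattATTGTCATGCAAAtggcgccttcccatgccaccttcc
Shroom3: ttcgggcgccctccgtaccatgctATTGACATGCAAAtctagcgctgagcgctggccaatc

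The plain set holds the 5 highest-ranked promoter regions with the plain SOX word (AACAAA or AACAAT, capitals) but without the composite word, a histone gene or a small RNA gene, among regions that were not mostly multi-copy (repeated elsewhere in the reference over most of their length). The occurrence closest to the region's midpoint is shown for chr6:149079685-149079770 (minus) near Gm10203, chr6:54504516-54504601 (minus) at Scrn1, chr2:51927733-51927818 (minus) at Rif1, chr1:88423135-88423220 (minus) at Ptma and chr5:117041948-117042033 (plus) at Srrm4.
Gm10203: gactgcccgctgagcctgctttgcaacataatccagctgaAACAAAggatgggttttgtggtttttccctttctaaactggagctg
Scrn1: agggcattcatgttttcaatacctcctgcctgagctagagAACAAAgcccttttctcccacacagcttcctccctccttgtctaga
Rif1: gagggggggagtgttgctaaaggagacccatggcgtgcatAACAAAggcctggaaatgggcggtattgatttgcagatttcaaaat
Ptma: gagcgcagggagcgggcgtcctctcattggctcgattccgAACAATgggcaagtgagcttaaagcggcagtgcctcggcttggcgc
Srrm4: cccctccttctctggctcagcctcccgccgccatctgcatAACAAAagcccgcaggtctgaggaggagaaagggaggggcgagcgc

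The lists held 18816 (replicate 1), 8096 (replicate 2) and 40543 (replicate 3) peaks, each with a score of 10 times the negative log10 of its MACS p-value, and 50 as the lowest score. Read counts are not in the lists, so depth is unknown and scores are compared only as percentiles within a list. A region's lowest percentile is the lowest of its 3 percentiles. Replicates 2 and 3 were not like replicate 1: their peaks began at the same base in 354 promoter regions (34.4%, 31.6 to 37.4%), against 9 for replicates 1 and 2 (0.875%) and 12 for replicates 1 and 3 (1.17%). The share for replicates 2 and 3 was 36% over the other common regions. Whether these lists share reads or processing cannot be told from the lists, so they may not count as fully separate support for a common region. Replicate 1 placed the largest share of its peaks at promoters (26.5%), followed by replicate 2 (17.4%) and replicate 3 (11.7%), and these shares did not overlap in their intervals. Without replicate 1 there were 1335 promoter regions (17.2% of the common regions), without replicate 2 there were 1689 (21.4%), and without replicate 3 there were 1054 (19.3%). The intervals in the text cover counting error only, since regions of 1 genome are not replicates of a condition, and no p-value was computed.

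The promoter regions clustered at the start sites, more often upstream than downstream. The median distance from midpoint to the nearest start was 203 bp, with quartiles of 70.5 and 727 bp. The midpoint was within 100 bp of a start in 335 regions (32.6%), within 500 bp in 714 (69.5%, 66.6 to 72.2%) and within 1000 bp in 846 (82.3%). It was upstream of the start in 669 regions (65.1%, 62.1 to 67.9%) and downstream in 358 (34.8%, 32 to 37.8%). Within 250 bp, 409 midpoints were upstream and 153 downstream. The start itself was inside the region in 530 cases (51.6%). At the outer limit, the last regions counted were at Cbfa2t2 (1988 bp), Soat1 (1990.5 bp) and Pou5f1 (1993 bp), and the first left out were at Gp1bb (2007 bp), Celf2 (2016.5 bp) and Ext1 (2016.5 bp).

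**Figure D1:**
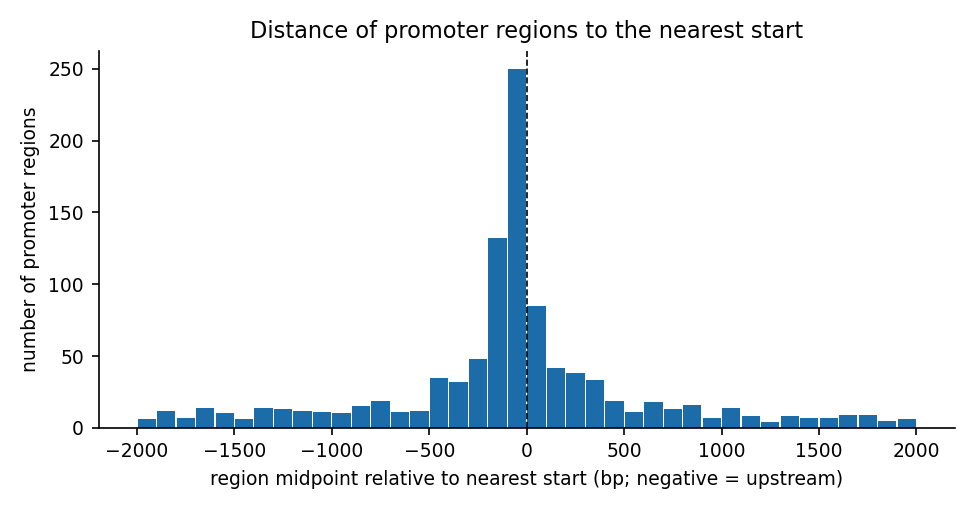
Number of promoter regions (vertical axis) by the position of the region midpoint relative to the nearest start in bp (horizontal axis, 100 bp bins, negative upstream), with a dashed line at the start. The bin just upstream of the start held 250 regions and the bin just downstream held 85.

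Most promoter regions had 1 gene within reach (875), while 134 had 2 genes and 19 had 3. A head-to-head pair of starts, on opposite strands and up to 1000 bp apart, was present at 94 promoter regions (9.14%), and the midpoint fell between both starts in 49 of them. Genes with a promoter region belonged to such a pair more often (138 of 1072, 12.9%, 11.0 to 15%) than genes without one (1461 of 21295, 6.86%, 6.53 to 7.21%). A region near such a pair can count for both genes, and the part of this counting in the difference was not tested.

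Among common regions, promoter regions had a lower median rank than the others in each list. When all peaks of a list were split into 5 score classes, the lists did not share a direction. The share at promoters was 27.8% in the lowest class of replicate 1 and 21.8% in its highest. Replicate 2 had 16.1 and 15.8%, and replicate 3 had 9.03 and 16.7%. The median percentile was 81.2 for promoter regions and 82.9 for other common regions in replicate 1, 58.2 and 66.5 in replicate 2, and 91.1 and 93.2 in replicate 3. Percentiles of 90 or more in replicate 3 were reached by 55.3% of the promoter regions and 66.7% of the others, and in replicate 2 by 11.2 and 15.9%. Replicate 2 gave the lowest percentile in 855 promoter regions (83.2%), replicate 1 in 167 and replicate 3 in 6. Replicate 2 has the shortest list, and common regions tend to fall at lower percentiles in a shorter list, so this count bears on list length and the lowest percentile mostly follows replicate 2. The median lowest percentile was 54.0 at promoters and 63.3 elsewhere, a difference of -9.23 that became -1.41 without replicate 1, -4.94 without replicate 2 and -0.87 among peaks with a p-value of 1e-10 or less. Across promoter regions, Spearman's rho of the percentiles was 0.616 between replicates 1 and 2, 0.571 between 1 and 3 and 0.877 between 2 and 3. The corresponding values across other common regions were 0.716, 0.689 and 0.915. The points of these correlations share the input background and regions are not independent.

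**Figure D2:**
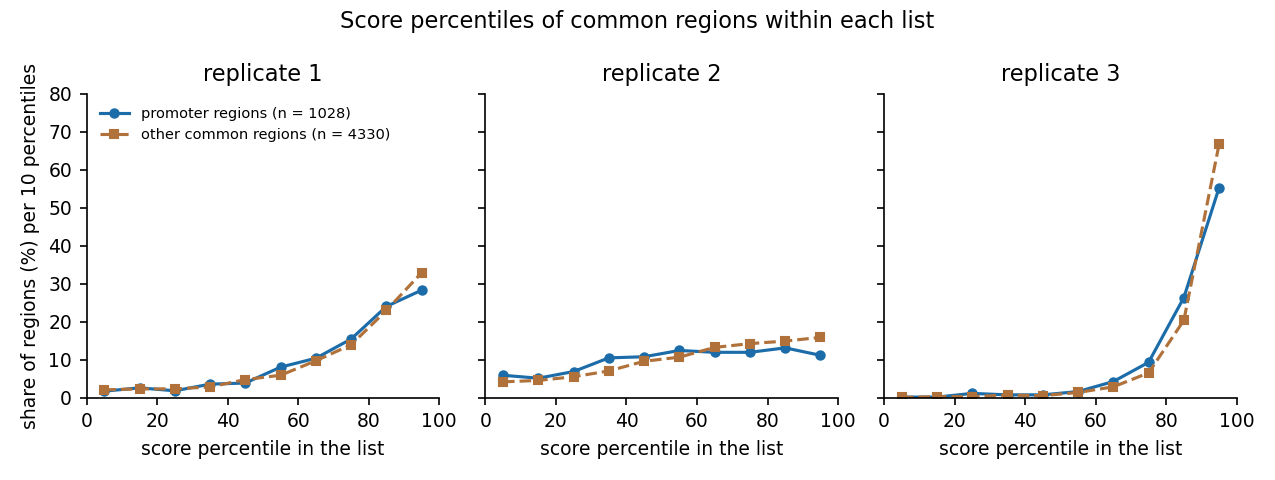
Share of regions (vertical axis, %) in bins of 10 score percentiles of a list (horizontal axis), 1 panel per replicate, for the 1028 promoter regions (circles, solid line) and the 4330 other common regions (squares, dashed line). The promoter regions fall below the others in the highest bin of each panel, at 28.3 against 32.9% in replicate 1.

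In width the promoter regions were like the others (median 400 against 402 bp), and in composition they were not. Their median GC content was 57.5%, against 47.8%, and the median ratio of observed to expected CpG was 0.662, against 0.18. A region was mostly multi-copy if over 50% of its 50-base stretches were repeated elsewhere in the reference. Such regions made up 139 of the promoter regions (13.5%, 11.6 to 15.7%) and 15% of the others (14 to 16.1%), and the placement of reads there is uncertain.

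Among the promoter regions with the highest ranks, 3 of the first 12 that were not mostly multi-copy held a gene for a small nuclear or nucleolar RNA. The region at the start of Rdm1, a gene for a RAD52-related protein, scored 1417 in replicate 1, 1390.0 in replicate 2 and 3100 in replicate 3 and held a U2 gene. The region in Tex14, needed for the bridges between germ cells, scored 1194, 986.5 and 1905 and held a U1 gene. The region 1039 bp upstream of Gtf3c6, which encodes a subunit of the polymerase III factor TFIIIC, scored 852.8, 994 and 1812 and held a U3 gene. In all, 11 promoter regions (1.07%) held such a gene. So did 39 of the 4330 other common regions, so these genes were not particular to promoters. The other 8 promoter regions held genes for U1 (at BC107364 and Eapp), U5 (Refbp2), U7 (Grcc10), U4atac (2900060B14Rik), U12 (Poldip3), SNORD74 (Zbtb37) and Snord13 (BC019943). Their lowest percentiles ran from 21.2 (BC019943) to 99.9 (BC107364).

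Among the promoter regions with no small RNA gene and not mostly multi-copy, that of Nrarp ranked highest. Nrarp encodes an ankyrin-repeat protein that is induced by Notch and limits Notch signalling. The region spans chr2:25035878-25036431, has its midpoint 123.5 bp upstream of the start in intergenic sequence, and scored 1749.7, 916 and 1730.1 in replicates 1 to 3 (percentiles 99.8, 99.4 and 99.8). It held 1 SOX/POU word, printed above, 74.5 bp from the midpoint.

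The next regions belonged to genes of varied function. The Gm10203 region (chr6:149079379-149080138, intergenic, 1066.5 bp downstream of the start) scored 1634, 860.4 and 1530.4. The Scrn1 region (chr6:54504294-54504910, intronic, 153 bp upstream of an alternative start) scored 1678, 842 and 1679. Scrn1 encodes secernin, a protein linked to exocytosis. The Rif1 region (chr2:51927515-51928161, intergenic, 519 bp upstream) scored 1611, 768 and 1426, and Rif1 acts in replication timing and repair of DNA breaks. It held 4 SOX words. The Ptma region (chr1:88422745-88423526, intergenic, 175.5 bp upstream) scored 1268, 749.7 and 1154 and held 3 SOX words. Ptma encodes prothymosin alpha, a small acidic nuclear protein. The Gadd45g region (chr13:51941092-51941665, intergenic, 668.5 bp upstream) scored 939, 742 and 986 and held no AACAAA or AACAAT. Gadd45g is a growth-arrest and stress gene.

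Srrm4 and Lefty1 closed the group. Srrm4 encodes a splicing regulator of neural exons, and its region (chr5:117041700-117042231, intergenic, 139.5 bp upstream) scored 1486, 684 and 1440.1. Lefty1 encodes an inhibitor of Nodal, and its region (chr1:182863666-182864304, intergenic, 1168 bp upstream) scored 1020.5, 660.2 and 1188. From Nrarp to Lefty1, each of these 8 regions had its lowest percentile in replicate 2, the shortest list.

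The 4 highest-ranked mostly multi-copy promoter regions were at BC107364 (which holds a U1 gene), the histone genes Hist2h2aa2 and Hist2h3c1, and Gm10925. The BC107364 region scored 3100, 2347 and 3100. The Gm10925 region scored 2308, 734 and 2332, was 4694 bp wide and consisted to 97.1% of sequence also present in the mitochondrial genome. The widest promoter regions were at Sfi1 (9487 bp), Zfp600 (5516 bp) and Gm10807 (5042 bp), and those with the most peaks were at Dux (7 peaks), Hist1h4n (6) and Hist1h1d (6). Except for Sfi1 (3.49%) and Hist1h1d (12.5%), these 6 regions were mostly multi-copy.

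Replication-dependent histone genes, which supply the core and linker histones of S phase and lie in clusters, had the largest share of genes with a promoter region among the gene groups examined. A promoter region was found at 63 of 67 such genes (94%), while over all protein-coding genes the share was 4.79%. The genes with a region were 4 of 5 for H1, 18 of 19 for H2A, 17 of 18 for H2B, 11 of 11 for H3 and 13 of 13 for H4. The testis gene Hist1h1t was counted in the 67 only. The 4 genes without a region were Hist1h1b and Hist1h1t on chromosome 13 and Hist3h2a and Hist3h2ba on chromosome 11. On chromosome 13, 57 promoter regions covered 53 of 55 histone genes, and on chromosome 3, 9 regions covered 9 of 9.

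These 67 histone promoter regions ranked high and mostly had their midpoints downstream of the start. Their median lowest percentile was 87.4, against 52.9 for the other 961 promoter regions, and their median width was 575 bp, against 395 bp. The midpoint was downstream of the start in 56 of them (83.6%), against 31.4% of the other promoter regions. Of the 67 regions, 30 were mostly multi-copy (44.8%), against 11.3% of the others. Histone genes of a family are near-identical copies, so which copy these peaks belong to is uncertain. Counting only regions that were not mostly multi-copy, 4 of 5 H1, 10 of 19 H2A, 13 of 18 H2B, 8 of 11 H3 and 11 of 13 H4 genes had a region. The highest-ranked one that was not mostly multi-copy, at Hist1h4j (chr13:21826641-21827628, exonic, 231.5 bp downstream of the start), scored 972, 768 and 1595. The SOX word was present in 44.8% of the histone regions and 48.5% of the others, and the 95% interval of this difference (Newcombe), -15.4 to 8.56 percentage points, included 0. The composite SOX/POU word was in 0 of the 67 and in 4.37% of the others, a difference whose interval (-5.85 to 1.17 points) also included 0. TATAAA was in 41.8 against 11.7% (interval of the difference 18.9 to 42.2 points) and CCAAT in 61.2 against 45.1% (3.76 to 27.3 points). These words were counted over whole regions, and the histone regions were wider. Near-identical copies among them count as separate regions in these intervals. The part of width and of copies in these word shares was not tested. Histone variants made outside S phase had a region at 1 of 10 genes, H2afy2 (10%, 1.79 to 40.4%). This interval held the 4.79% of all protein-coding genes. Without the histone regions, 961 promoter regions at 1008 genes remained.

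A list of genes for chromatin assembly and histone supply, which leaves out many chromatin modifiers, had a promoter region in 8 of 36 cases (22.2%, 11.7 to 38.1%, against 4.79% of all genes). Their lowest percentiles ran from 22.9 (Smarcb1) to 84.0 (Smarca5). The Smarca5 region, at the gene of an ISWI remodelling ATPase, scored 549, 185 and 282 in replicates 1 to 3. The Rbbp4 region scored 189, 133 and 143, with the midpoint 0.5 bp from the start. Rbbp4 encodes a histone-binding subunit of the chromatin assembly factor CAF-1 and of deacetylase complexes. The Chaf1b region, at the gene of a CAF-1 subunit, scored 164, 65.2 and 69.6. The Ssrp1 region scored 161, 92.2 and 135, and Ssrp1 encodes a subunit of the histone chaperone FACT. The Tet1 region, at the gene of a 5-methylcytosine oxidase, scored 161, 80.6 and 174. The Smarcc1 region scored 104, 108 and 180.3, and the Smarcb1 region 148, 58.4 and 69.7. Both genes encode subunits of the BAF remodelling complex. The Supt6h region, at the gene of an elongation factor that handles histones, scored 208, 99.3 and 179, with its midpoint 1900 bp from the start. It was the only 1 of the 8 with a SOX/POU word.

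Neural transcription factor genes had a promoter region in 15 of 103 cases (14.6%, 9.03 to 22.6%, against 4.79% of all genes). Both Hox genes named here pattern the hindbrain. The Hoxb1 region (chr11:96226568-96227143, intergenic, 210.5 bp upstream) scored 595, 317 and 535. The Hoxa2 region (chr6:52114763-52115422, exonic, 319.5 bp downstream) scored 464, 226 and 435 and held 2 SOX words. The Hoxb1 region held no AACAAA or AACAAT, and the composite word shown above lay 36.5 bp from its midpoint. The Pou2f1 region, at the gene of the octamer-binding factor OCT1, scored 525, 287 and 578. The Zic1 region scored 496, 265 and 452, and Zic1 encodes a zinc-finger factor of the dorsal neural tube. The Hes3 region scored 552, 254 and 331, and Hes3 is a bHLH repressor of neuronal differentiation. The Tcf7l1 region, at the gene of a nuclear effector of Wnt signalling, scored 427, 236 and 384. The Gbx2 region, with its midpoint 1598 bp upstream, scored 203, 165 and 301 and held 2 SOX words. Gbx2 positions the midbrain-hindbrain boundary. The other 8 genes were Hes5, Hes6, Neurog1, Nkx2-2, Pax6, Tcf7l2, Zeb2 and Zic5, with lowest percentiles from 17.7 (Neurog1) to 65.4 (Pax6).

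Genes of the Notch, Wnt, Hedgehog, FGF and BMP pathways had a promoter region in 17 of 73 cases (23.3%, 15.1 to 34.2%, against 4.79% of all genes). Among receptors, the Notch1 region (chr2:26359358-26359904, intronic, 287 bp upstream of an alternative start) scored 347, 133 and 177. It held no AACAAA or AACAAT but 1 composite word. Fzd2, a Wnt receptor gene, had a pair of regions, 777.5 and 45 bp upstream of the start, which scored 322, 191 and 329, and 436, 89.1 and 105. The Bmpr1b region, at the gene of a type I BMP receptor, scored 407, 173 and 342 and held 2 SOX words. Notch3, Fzd1, Fzd7, Fzd10, Fgfr2 and the Hedgehog signal transducer Smo also had regions, with lowest percentiles from 14.1 (Fzd7) to 64.7 (Fgfr2). Among ligands, Jag1 had a region of low rank (122.8, 71.3 and 55.3). Among inhibitors and modulators, Spry4, which limits receptor tyrosine kinase signalling, scored 248, 151 and 202 in a region also near Arhgap26, and Dkk1, a Wnt inhibitor, scored 149, 59.9 and 103. Sufu, Numb, Mfng, Gas1 and Cdon completed the group, with the Sufu region nearer the start of Actr1a (493 bp) than that of Sufu (1654 bp).

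Of 12 neural progenitor marker genes, 3 had a promoter region (25%, 8.89 to 53.2%, against 4.79% of all genes), namely Notch1, Pax6 and Cdh2. Notch1 and Pax6 were already counted in the lists above. Cdh2 encodes N-cadherin, and its region, 123.5 bp upstream of an alternative start, scored 206, 120 and 295 and held 3 SOX words. Genes of the pluripotent state had regions in 5 of 17 cases (29.4%, 13.3 to 53.1%), namely Pou5f1, Nanog, Dppa3, Lin28a and Sall4. These and the following genes were picked from their lists after their values were seen. Pou5f1 had 2 regions, 969.5 and 1993 bp upstream, which scored 717, 335 and 552, and 609, 331 and 528. The Nanog region scored 95.7, 131 and 199 with its midpoint 88 bp upstream of the start, and held a SOX/POU word. Immediate-early genes had regions in 7 of 29 cases (24.1%, 12.2 to 42.1%), with Junb the highest (969, 634 and 1132). Most housekeeping lists had intervals that held the 4.79% of all genes. Regions were present at 5 of 80 ribosomal protein genes (6.25%, 2.70 to 13.8%) and 2 of 35 translation factor genes (5.71%, 1.58 to 18.6%). DNA replication genes had 2 of 44 (4.55%, 1.26 to 15.1%) and cell cycle genes 1 of 31 (3.23%, 0.57 to 16.2%). The cell cycle gene was Rb1, whose regions lay nearer the start of Lpar6. Splicing genes were higher, with 7 of 61 (11.5%, 5.67 to 21.8%), and this interval overlapped that of neural transcription factor genes. Of 14 neuronal genes 1 had a region, Tubb3 (7.14%, 1.27 to 31.5%), of 13 mesoderm and endoderm genes none had, and of 1113 olfactory receptor genes only Olfr224 had. For the mesoderm and endoderm genes the interval allows a share of up to 22.8%.

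**Figure D3:**
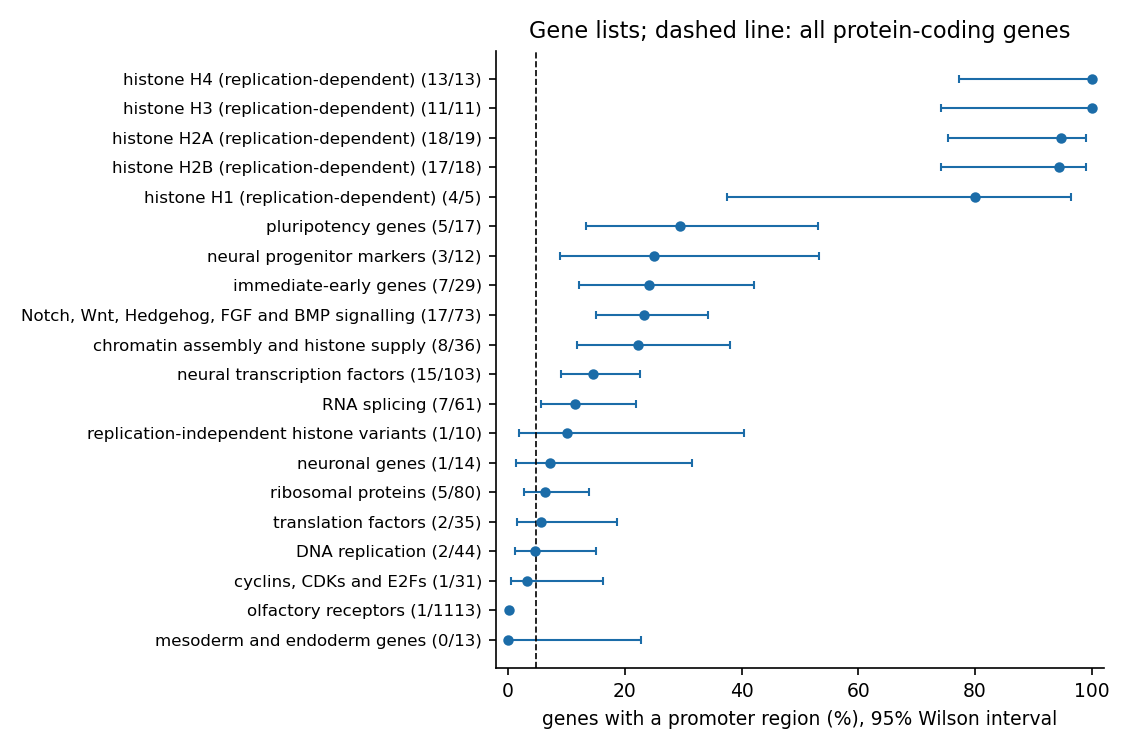
Share of the genes of each list that have a promoter region (horizontal axis, %, points with 95% Wilson intervals, counts beside the names), with a dashed line at 4.79% for all protein-coding genes. The 5 histone families stand at 80% or more, and the neural, signalling, chromatin and pluripotency lists between 14.6 and 29.4%.

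The SOX word content of promoter regions depended on what they were set against. The SOX word (AACAAA or AACAAT, either strand) was present in 496 of 1028 promoter regions (48.2%, 45.2 to 51.3%). It was present in 66.3% of the other common regions, a difference of -18.04 points (Newcombe interval -21.4 to -14.7). Flanking windows, equal in width and centred 2000 bp from the midpoint of a promoter region, held it in 50.6% of cases, and the difference of -2.33 points (-6.06 to 1.41) did not leave out 0. A relaxed SOX word (ACAAA or ACAAT followed by A or G, which overlaps the first in part) was in 73.9% of promoter regions and 69.6% of these flanking windows (0.99 to 7.67 points higher). A further form, GACAAA or GACAAT, was in 39.9 against 34.0% (2.28 to 9.52 points higher). The other common regions held these 2 forms more often than promoter regions. They had the relaxed word in 84.6% (interval of the promoter difference -13.6 to -7.86 points) and GACAAA or GACAAT in 50.6% (-14.0 to -7.32 points).

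At the midpoints the SOX word stood above its surroundings. In 50 bp bins, 13 and 12.6% of the promoter regions held it on either side of the midpoint, with intervals of 11.1 to 15.2% and 10.8 to 14.8%. In the bins 50 to 100 bp away the shares were 6.91 and 7.10%, and more than 100 bp away they lay between 5.35 and 9.24%. The other common regions also peaked at the midpoint, at 20.1 and 20.8%, and held the word in 12.7 and 12.4% of the bins 50 to 100 bp away.

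**Figure D4:**
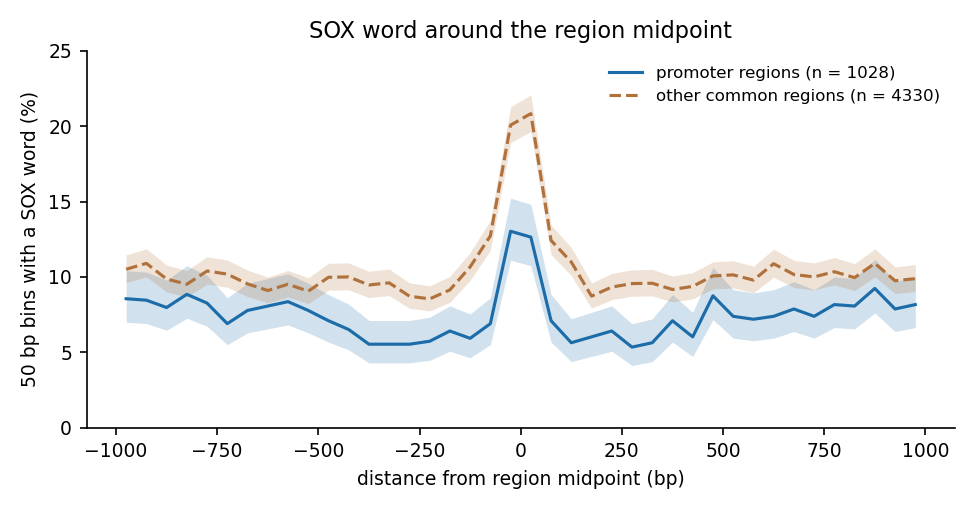
Share of 50 bp bins with the SOX word (vertical axis, %) by distance from the region midpoint in bp (horizontal axis), for promoter regions (solid line) and other common regions (dashed line), with 95% Wilson intervals as bands. Both lines peak at the midpoint, at 13% for promoter regions and 20.8% for the others.

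Against starts without any peak, promoter regions were richer in each SOX word. Windows of 200 bp at the midpoints of the 714 promoter regions within 500 bp of a start were compared with start windows without peaks. The latter were 148088 windows, 100 bp apart, within 500 bp of starts of 13465 genes without peaks of any list within 5000 bp. Neighbouring windows of a gene overlap and are not independent, which the intervals do not take into account. The SOX word was in 27.2 against 21.3% of windows (2.73 to 9.25 points higher), the relaxed word in 52.8 against 34.6% (14.5 to 21.8 points higher) and GACAAA or GACAAT in 21.1 against 14.8% (3.46 to 9.45 points higher). Weighted to the distances of the bound windows, the SOX word share of windows without peaks was 19.8%. The bound windows were richer in G and C (median 60.5 against 51%). Within bands of GC content, a comparison chosen after the data were seen, the SOX word was in 37.8 against 21.2% of windows at 45 to 55% GC, in 25.9 against 7.93% at 55 to 65% GC and in 20.9 against 2.98% at 65% GC and over. The differences, 16.6, 17.9 and 17.9 points, each had an interval above 0. Under 45% GC, with 28 bound windows, it was 39.3 against 41.8% (-18.3 to 15.8 points).

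The lower SOX word content of promoter regions against the other common regions also varied with GC. In 200 bp windows at all midpoints it was -17.96 points under 45% GC (-28.1 to -7.19), -7.50 points at 45 to 55% (-13.6 to -1.35), -2.54 points at 55 to 65% (-8.06 to 3.17) and 4.28 points at 65% and over (-4.42 to 12). In windows of 55% GC or more the intervals of this difference therefore held 0.

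**Figure D5:**
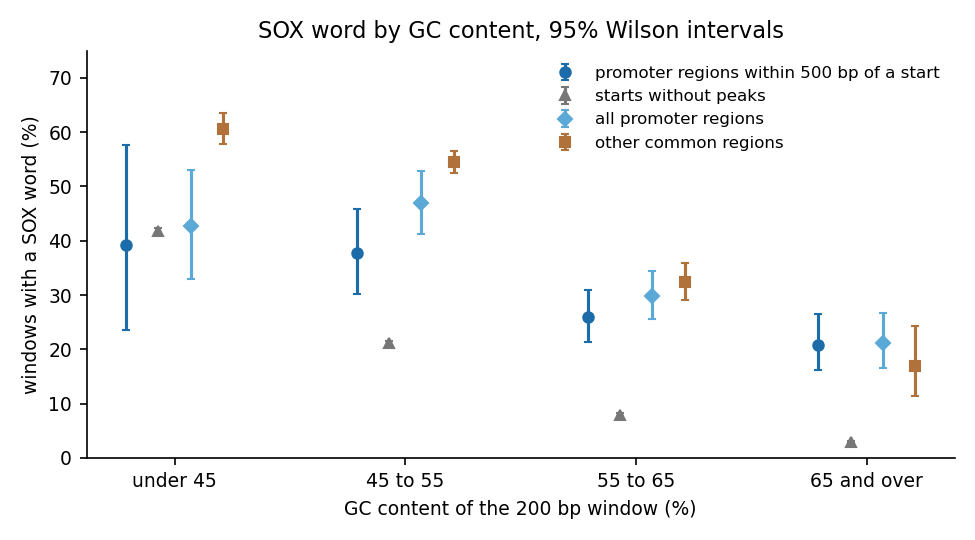
Share of 200 bp windows with the SOX word (vertical axis, %, with 95% Wilson intervals) in 4 bands of GC content (horizontal axis), for promoter regions within 500 bp of a start (circles), starts without peaks (triangles), all promoter regions (diamonds) and other common regions (squares). At 65% GC and over the promoter regions near a start stand at 20.9% and the starts without peaks at 2.98%.

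The composite SOX/POU word was rarer than the plain SOX words. It was in 42 of 1028 promoter regions (4.09%, 3.04 to 5.48%), in 7 of 2056 flanking windows (0.34%) and in 7.67% of the other common regions, from which promoter regions differed by -3.59 points (-4.92 to -2.0). In 200 bp windows near a start it was in 24 of 714 bound (3.36%) and in 308 of 148088 without peaks (0.208%), a difference of 3.15 points (2.06 to 4.74). The octamer of POU factors (ATGCAAAT or ATGCTAAT, which the composite word can overlap) was in 8.95% of promoter regions, 4.13% of flanking windows and 12.2% of the other common regions.

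The 5 highest-ranked promoter regions with a SOX/POU word were at genes of varied function. After Nrarp came Prune2 (chr19:17212458-17213133, intronic, 1541.5 bp downstream of an alternative start), which scored 1189.5, 588 and 1047. The Igfbpl1 region scored 813, 532 and 896, and its composite word lay 11.5 bp from the midpoint. The Pipox region, at the gene of a peroxisomal oxidase, scored 1035, 466 and 856. The Shroom3 region scored 893, 433 and 738, and Shroom3 encodes an actin-binding protein required for apical constriction in the neural tube. In these 5 regions and those of Hoxb1 and Notch1 the composite word was within 74.5 bp of the midpoint, and in 6 of the 7 the POU part read ATGCAAA, with ATGCTAA in Hoxb1.

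The SOX word share was higher farther from the start. In 200 bp windows it was 26.0% for promoter regions within 100 bp of a start, 25% at 100 to 250 bp, 33.1% at 250 to 500 bp, 42.4% at 500 to 1000 bp and 52.2% at 1000 to 2000 bp. The farthest group exceeded the nearest by 26.2 points (17.5 to 34.6), and its median GC content was 51 against 61.5%. The part of GC content in this difference was not tested. The promoter regions were also ordered by lowest percentile and split into 4 groups of 257. The share was 27.6% in the lowest group, 32.3 and 38.9% in the middle groups and 35.4% in the highest group. The highest group exceeded the lowest by 7.78 points (-0.25 to 15.7), and by 9.29 points (0.49 to 17.9) without mostly multi-copy regions. The composite word was counted over whole regions, whose width was not matched between groups. It was in 3.11, 2.72, 3.50 and 7.0% of the regions of these groups, from lowest to highest. The highest exceeded the lowest by 3.89 points (0.04 to 7.98), and by 4.47 points (0.04 to 9.14) without mostly multi-copy regions. Among regions that were not mostly multi-copy, the other common regions showed such a gain as well, of 7.65 points (3.12 to 12.1) for the SOX word and 2.70 points (0.14 to 5.28) for the composite word.

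Words of general promoter factors were also counted in promoter regions and in the other common regions. GGGCGG, the GC box, was in 51.9 against 13.3%, CCAAT in 46.1 against 41.2%, CACGTG (E-box) in 10.3 against 4.37%, AAGATGGC (YY1) in 4.38 against 2.01%, CCGGAAGT (ETS factors) in 3.99 against 0.462%, the NRF1 word in 3.31 against 0.37% and TGACGTCA (CRE) in 2.63 against 0.323%. Each of these differences had an interval above 0. The promoter regions were richer in G and C (median 57.5 against 47.8%). In 200 bp windows the GC box difference was 28.9 points. By GC band it was 1.91 points under 45%, 9.33 at 45 to 55%, 23.3 at 55 to 65% and 14.5 at 65% and over. The CCAAT difference in such windows was 7.81 points, and 5.83, 10.2, 14.3 and 9.26 points in these bands. Under 45% GC both intervals held 0. Over whole regions, TATAAA (13.6 against 18.4%) and TGANTCA (AP-1, 7.98 against 12.1%) were less frequent in promoter regions, with intervals below 0. In 200 bp windows TATAAA was in 5.45 against 6.35%, and the interval of the difference (-2.35 to 0.80 points) held 0. For TGANTCA in these windows the interval stayed below 0 (-3.68 to -0.91 points). Near starts, TATAAA was in 4.34% of bound windows and 9.62% of windows without peaks, which are poorer in G and C. A word match describes the sequence and does not show that a factor binds there.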

How the data were processed

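SOX3 ChIP-seq peak lists of 3 NP cell samples were analysed. Per the labels and the study's methods, the authors aligned reads to mm9 with Bowtie 1.0.0 (version from the submitters' processing notes) and called peaks per sample with MACS (version not given in the sources used here) against the input at a p-value of 1e-05. The deposited score expresses the MACS p-value as −log10 multiplied by 10, without normalization between samples. The input has no peak list of its own, and depth is unknown. Peaks were merged, annotated with GENCODE vM1 starts and read from the NCBIM37 (mm9) reference. Percentiles were taken within a list from the highest score of a region. Words were counted exactly on both strands. Multi-copy sequence was measured by counting 50-base sequences in the reference. Shares carry 95% Wilson intervals and their differences Newcombe intervals. The steps were tested on simulated data. pysam 0.24.0, numba 0.67.0, numpy 2.4.6, scipy 1.17.1 and matplotlib 3.10.9 were run under Python 3.11.15.

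The regions and gene lists were chosen with earlier results of these data known. Regions named with values are the 12 highest by lowest percentile among those not mostly multi-copy and the 4 highest mostly multi-copy ones. Also named are the 12 highest at developmental genes (neural transcription factors, signalling, progenitor markers), the 3 with most peaks and the 3 widest. The 5 highest with the SOX/POU word and all 8 of the chromatin list complete these rules. Others were named after their values were seen. Sox1, Map2 and H1f0 were not matched by symbol. The labels call the samples biological replicates without naming separate cultures. Alternatives were each replicate left out, stricter peaks, reciprocal overlap, equal numbers of peaks, promoters within 1000 or 5000 bp, 1 start per gene, no multi-copy regions, and other windows and cuts.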

Additional observations from a re-analysis of the deposited data

How the results depend on the processing

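No paired analysis was possible because the input has no peak list of its own. With each replicate left out, promoter regions numbered 1054 to 1689 at 1093 to 1737 genes, their share of common regions was 17.2 to 21.4%, the SOX word share 42.8 to 45.6%, and the median lowest percentile relative to other common regions -9.23 to -1.41. Peaks with a p-value of 1e-10 or less gave 424 regions at 444 genes, a promoter share of 15.8%, 64.9% of regions within 500 bp of a start, a SOX word share of 55.9%, a percentile difference of -0.87 and a GC difference of 8.68 points. The promoter share was 17.9% with reciprocal overlap, 18.1% with equal numbers of peaks, 15.8% within 1000 bp, 26.0% within 5000 bp and 15.7% with 1 start per gene. The share within 500 bp was 84.4% when promoters ended at 1000 bp and 51.3% at 5000 bp. The SOX word share was 44.7% within 1000 bp and 33.6% in 200 bp windows. The multi-copy difference of -1.47 points was 0.102 with a cut of 90%, and both intervals held 0. By GC band, an alternative added after the data were seen, the SOX word difference against starts without peaks was -2.55 points under 45% GC, and that against other common regions was -2.54 points at 55 to 65% and 4.28 points at 65% and over. The cause of these changes was not tested, except that narrower windows hold fewer words and a wider or narrower promoter holds more or fewer regions by construction. Of 98 values recomputed, the other 70 met these limits, namely counts within 1.5 times, shares and medians inside the limits set around the reported value, and differences with the same sign and the same side of 0 for their interval, whatever their size. Unknown depth and lists of unequal length limit every count.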

Other observations

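Some genes had several promoter regions. Of 1072 genes, 971 had 1 region, 82 had 2, 11 had 3 and 8 had 4. The 8 genes with 4 regions were Gm3002 and 7 histone genes of chromosome 13 (Hist1h2ai, Hist1h2ao, Hist1h2ap, Hist1h2bl, Hist1h2bq, Hist1h2br and Hist1h3h), where 1 region can lie near several starts. Genes with 3 regions, none of them mostly multi-copy, included the protocadherin gene Pcdh19 (lowest percentiles 47.0 to 91.3), the kinase gene Map4k4 (4.46 to 84.7) and Hist1h4h (20.1 to 92.8).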
